A study of Mus musculus with 4 samples.

Results

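The genes described here build and load MHC class I molecules in Langerhans cells, which are epidermal dendritic cells that present antigen. The 10 genes were the class I heavy chains H2-K1, H2-D1 and H2-T23, the light chain B2m, the peptide transporter subunits Tap1 and Tap2, the loading bridge Tapbp, the trimming peptidase Erap1, and the chaperones Calr and Canx. Every probe set that the platform annotation gave to 1 of these genes alone was used, which left 29 probe sets of 9 genes, out of 22626 probe sets and 12393 genes measured. H2-T23 had no probe set of its own. Another 5 probe sets were shared by annotation between a listed gene and other genes, and no gene was named from them.

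The study compared Langerhans cells of 2 genotypes on 4 Affymetrix MOE430A arrays. The AhR-deficient group (2 arrays) came from mice lacking exon 2 of the gene for the aryl hydrocarbon receptor (AhR), a ligand-activated transcription factor, and the wild-type group (2 arrays) from C57BL/6 mice. No mouse was treated, and cells of both groups came from ear epidermis and spent 16 hours in culture before sorting for living cells with MHC class II on the surface, to a purity above 95%. The labels give whole sheets in one place and a cell suspension in another as what was cultured. The samples are called biological replicates, with no age or number of mice, and with 2 arrays a group the exact permutation test cannot go below p = 0.333 (two-sided).

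MHC class I molecules carry short peptides from inside the cell to its surface, where CD8+ T cells read them. A heavy chain pairs with beta-2 microglobulin in the endoplasmic reticulum, is held there by calnexin and then calreticulin, and is brought by tapasin to the TAP transporter, which pumps in peptides from the cytosol. Dendritic cells also load peptides from engulfed material onto class I, a route called cross-presentation. Many genes of the route are known to be inducible by interferons and NF-kB.

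All 9 measured genes had a higher mean signal in AhR-deficient cells, and none passed the test over all probe sets. Their log2 differences, AhR-deficient minus wild-type, ran from 0.41 for H2-K1 to 0.72 for Tap1, or 1.33-fold to 1.65-fold, with a median of 0.48 against 0.01 over all genes. Where a gene had several probe sets, its brightest on average is given, and values are RMA log2 signals, in which a step of 1 is a doubling. In bulk RNA, a larger share of one kind of cell and more RNA per cell cannot be told apart. In 6 of the 9 genes both AhR-deficient arrays lay above both wild-type arrays, where 18.8% of all genes did, and in 0 genes below, where 16.6% did. The 6 were H2-K1, H2-D1, B2m, Tap1, Tapbp and Canx. The genes were chosen with earlier results of these data known, so shares of all genes are no test of them.

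In limma, 0 of the 29 probe sets had an adjusted p under 0.05 (smallest 0.374), where 0% of all probe sets passed as higher and 0.0177% as lower. At an unadjusted p under 0.05, 9 of the 29 were higher and 0 lower, against 3.36% and 2.64% of all probe sets. Without overlap 18 of the 29 were higher and 2 lower, against 19% and 16.2% of all probe sets. Probe sets of a gene are not independent of each other. Between 0.92% (Tap1) and 3.16% (H2-K1) of all genes had a higher difference than a listed gene. Shares and medians of all genes are not matched for signal level. A mean signal below 4.56 was found in 0 of the 9 genes and in 2085 of the 12393.

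**Figure D1:**
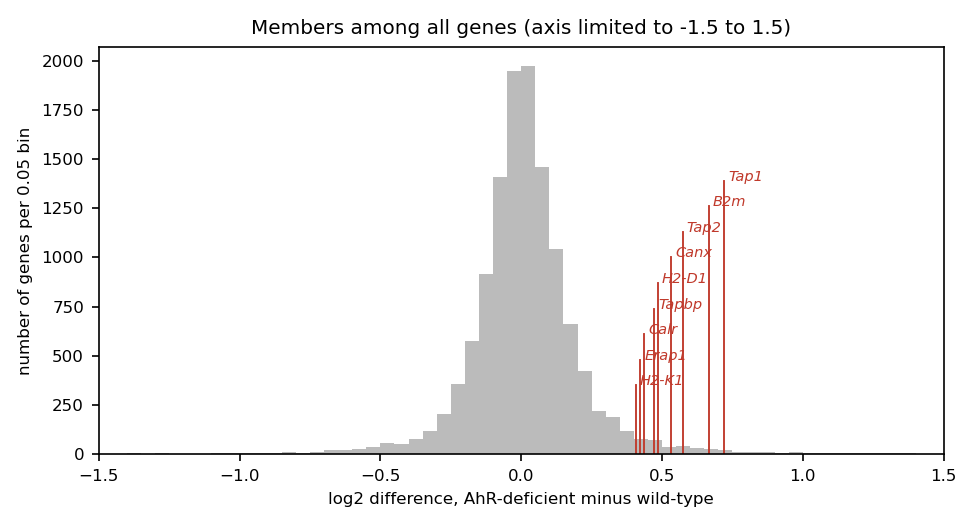
Histogram of log2 differences, AhR-deficient minus wild-type, for all genes (grey, number of genes per bin of 0.05, genes beyond 1.5 in either direction not drawn), with the 9 measured class I genes as red lines whose height has no meaning. The red lines lie between 0.41 and 0.72, in the right-hand flank of the grey distribution.

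H2-K1 and H2-D1 encode the classical heavy chains that present peptide to CD8+ T cells. The H2-K1 signal (probe set 1425336_x_at) was 11.74 and 11.86 in the AhR-deficient samples and 11.12 and 11.67 in the wild-type samples. The genotypes did not overlap, but wild-type replicate 2 lay only 0.07 below the nearer AhR-deficient array. The difference of 0.41 (SE 0.21, limma adjusted p = 0.870) was smaller than the gap of 0.55 between the wild-type arrays. H2-D1 (1425545_x_at) followed the same order of genotypes, with 11.59 and 11.44 against 10.69 and 11.36. Its difference of 0.48 (SE 0.24, limma adjusted p = 0.870) was also smaller than the wild-type gap of 0.66. In both genes it was wild-type replicate 1 that was low.

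The promoters of H2-K1 and H2-D1 are shown beside that of B2m because these genes supply the chains of one molecule and share known regulatory elements. The stretches below are from RefSeq for GRCm38.p6, written 5′ to 3′ on the gene's strand. Capitals mark matches to an NF-kB type motif (the first match in each stretch), an interferon-stimulated response element type (GAANNGAAA), an X2 type (TGACGC) and a Y box type (CCAAT), searched on both strands of the 250 bases before the start, with no overlap between matches.
H2-K1, chr17:34000353-34000464, minus strand, from 117 to 6 bases before the start: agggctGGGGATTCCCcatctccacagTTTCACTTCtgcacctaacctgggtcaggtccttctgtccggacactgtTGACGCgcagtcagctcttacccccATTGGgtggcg
H2-D1, chr17:35262917-35263028, plus strand, from 177 to 66 bases before the start: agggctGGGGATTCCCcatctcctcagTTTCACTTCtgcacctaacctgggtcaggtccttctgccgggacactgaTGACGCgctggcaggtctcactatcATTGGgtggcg
B2m, chr2:122147555-122147644, plus strand, from 132 to 43 bases before the start: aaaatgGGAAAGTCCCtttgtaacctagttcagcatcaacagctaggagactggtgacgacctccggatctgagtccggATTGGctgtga

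The H2-K1 and H2-D1 stretches were identical at 101 of 112 positions (90.2%), with the 4 motifs in the same order and spacing. The B2m stretch held the NF-kB type and the Y box type. Of 32851 promoters in the table, 4.11% held the NF-kB type, 6.31% the interferon type, 6.12% the X2 type and 33.8% the Y box type. Of the 9 listed genes with a promoter in the table (Tap2 had none), these were found in 3, 2, 2 and 8 genes. The search took exact matches only, so a near match was not counted. A match describes letters, not binding.

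Other probe sets of H2-K1 gave similar values, while those of H2-D1 varied more. All 4 of H2-K1 had non-overlapping arrays with differences between 0.41 and 0.55. Of these, 1450534_x_at, at 8.47 and 8.29 in AhR-deficient samples and 7.72 and 7.98 in the wild-type samples, had the smallest SE relative to its difference (0.53, SE 0.13, limma adjusted p = 0.682). H2-D1 had 9 probe sets, 8 of them higher and 1 lower without overlap, where 19% of all probe sets were higher and 16.2% lower in this way. Its 4 brightest lay between 0.42 and 0.54 and the lower one, 1452544_x_at, at -0.07 (SE 0.07). The rest lay between 0.11 and 0.38, and 2 of them were dim, with a mean below 4.56. For the probe set 1451784_x_at the genotypes were parted by only 0.003, with 11.43 and 11.32 against 10.61 and 11.31. All 4 H2-K1 and 7 of the 9 H2-D1 probe sets end in _x_at, a suffix for sets whose probes may also bind related transcripts. Signal of one heavy chain may therefore be counted with that of another, and these rows are not separate evidence.

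**Figure D2:**
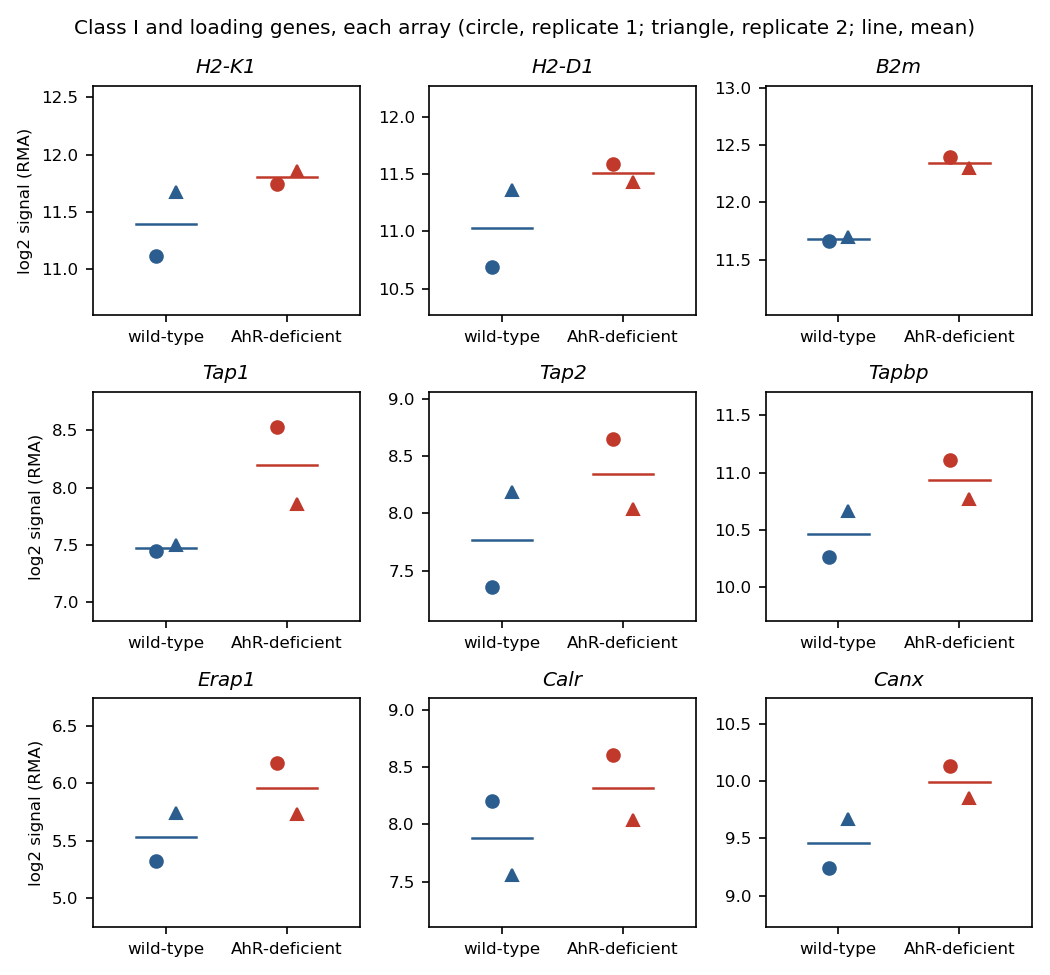
Log2 signal of each of the 9 measured genes on every array, with wild-type in blue, AhR-deficient in red, circles for replicate 1, triangles for replicate 2 and lines for the mean of 2 arrays; each panel spans 2 log2 units. B2m, by its brightest probe set, shows tight pairs that stand apart, while in H2-K1, H2-D1 and Tap2 the wild-type arrays are spread by 0.55 to 0.83.

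B2m encodes beta-2 microglobulin, the light chain that every classical class I molecule needs. Its signal (1449289_a_at) was 12.39 and 12.30 in the AhR-deficient samples and 11.66 and 11.70 in the wild-type samples. The genotypes were parted by 0.60, against gaps of 0.10 and 0.04 between replicates. The difference was 0.67 (SE 0.08, 95% interval 0.45 to 0.89), or 1.59-fold, and did not pass adjustment (limma adjusted p = 0.374, unadjusted p = 0.000906). A second B2m probe set, 1452428_a_at, read 11.69 and 11.67 against 10.50 and 11.14. It gave 0.86 (SE 0.23, limma adjusted p = 0.710), again without overlap, with wild-type replicate 1 lowest. Among the listed genes, each by its brightest probe set, only B2m had replicate gaps smaller than those of most genes. Counting the larger gap, 78.8% of all genes had one greater, against 2.38% to 15.1% for the other 8. In the second B2m set the wild-type arrays lay 0.64 apart.

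Tap1 and Tap2 encode the subunits of the peptide transporter. Tap1 (1416016_at) read 8.53 and 7.85 in the AhR-deficient samples and 7.45 and 7.50 in the wild-type samples. The wild-type arrays were close together and the spread lay in the AhR-deficient pair, whose gap of 0.68 nearly matched the difference of 0.72 (SE 0.24, limma adjusted p = 0.811). The 3 other Tap1 probe sets, between 3.65 and 4.62 on every array, differed by -0.10, -0.03 and -0.11, and 2 of them had a mean below the dim limit of 4.56, the 25th percentile of probe set means. The set among them that was not dim, 1448177_at, was lower without overlap, at 4.57 and 4.46 against 4.61 and 4.62. Averaged over all 4 probe sets the Tap1 difference was 0.12, so its size rests on the bright set. Tap2 (1453913_a_at) read 8.65 and 8.04 against 7.36 and 8.18. Wild-type replicate 2 lay above AhR-deficient replicate 2, so the genotypes overlapped, and the difference of 0.57 had an SE of 0.36 (limma adjusted p = 0.892).

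Tapbp encodes tapasin, which tethers empty class I molecules to the transporter and edits their peptides. Its brighter probe set (1421812_at) read 11.11 and 10.77 in the AhR-deficient samples and 10.27 and 10.67 in the wild-type samples. The arrays did not overlap and were parted by 0.10, with a difference of 0.47 (SE 0.19, limma adjusted p = 0.857). The dimmer set, 1450378_at, read 6.16 and 6.01 against 5.73 and 5.69. It separated the genotypes by more than its replicate gaps of 0.15 and 0.03, with a difference of 0.38 (SE 0.09, limma adjusted p = 0.674).

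Erap1 encodes the aminopeptidase that trims peptides to fit class I in the endoplasmic reticulum. Its only probe set (1416942_at) read 6.17 and 5.74 against 5.32 and 5.75. AhR-deficient replicate 2 and wild-type replicate 2 were within 0.01 of each other, and the difference was 0.42 (SE 0.22, limma adjusted p = 0.873).

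Canx and Calr encode calnexin and calreticulin, the lectin chaperones that fold class I chains and many other glycoproteins. Canx (1415692_s_at) read 10.13 and 9.85 in the AhR-deficient samples and 9.24 and 9.67 in the wild-type samples, without overlap. Its difference was 0.53 (SE 0.19, limma adjusted p = 0.825), while its other sets overlapped and gave 0.43 (SE 0.34) and 0.21 (SE 0.19). Calr (1417606_a_at) read 8.60 and 8.04 against 8.20 and 7.56. It was the only gene of the 9 in which wild-type replicate 2, not replicate 1, was lowest, and in all 3 of its probe sets the genotypes overlapped. The Calr differences were 0.44 (SE 0.30), 0.23 (SE 0.24) and 0.12 (SE 0.20), the first with a limma adjusted p of 0.899.

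**Figure D3:**
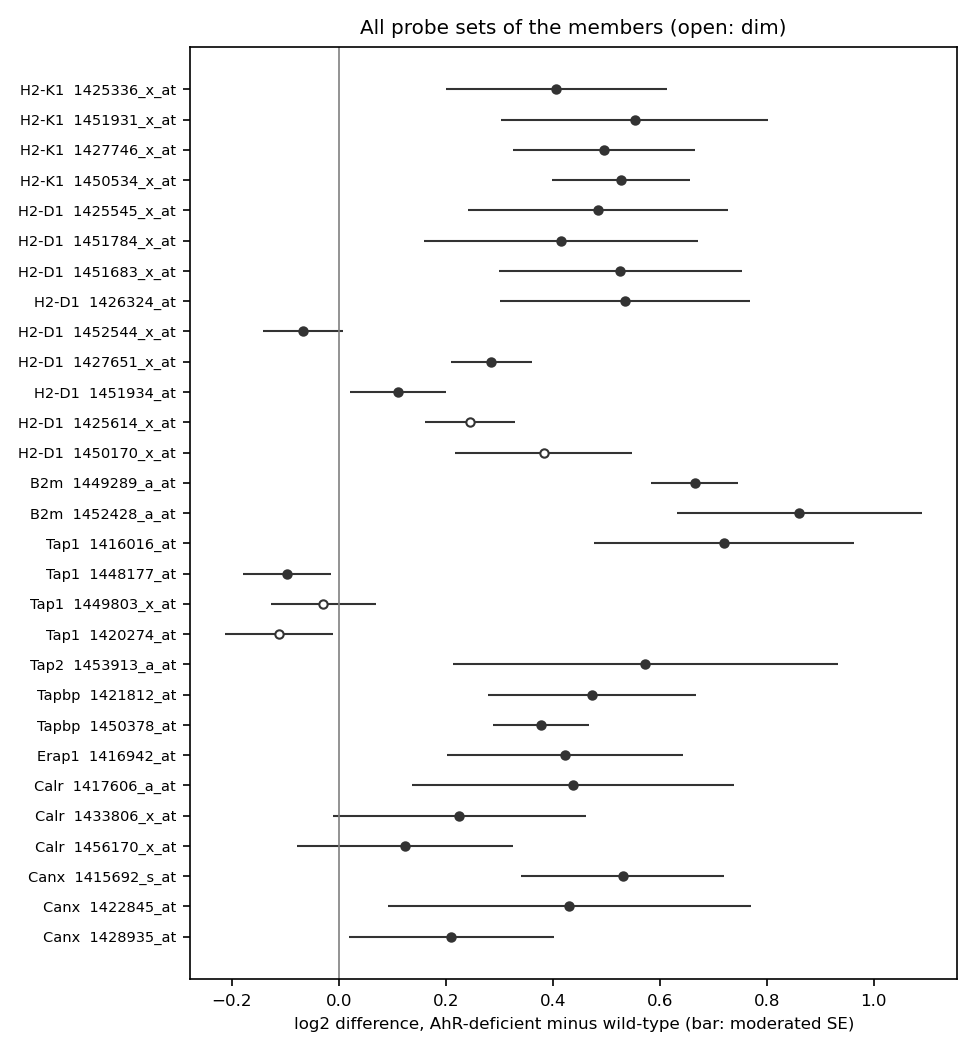
Log2 difference, AhR-deficient minus wild-type, of all 29 probe sets (points) with limma's moderated SE (bars); open points are dim, with a mean log2 signal below 4.56. The points lie right of 0 for 25 probe sets, and the 4 left of 0 are 3 of Tap1 and 1 of H2-D1, all within 0.12 of 0.

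The listed genes shared a pattern over single arrays as well as over genotypes. Centred on each gene's own mean, their average log2 signal was 0.43 and 0.09 in AhR-deficient replicates 1 and 2 and -0.41 and -0.11 in wild-type replicates 1 and 2, while all genes averaged between -0.01 and 0.02 on every array. Wild-type replicate 1 was the lowest array in 8 of the 9 genes, where it was lowest in 26.3% of all genes. In B2m and Tap1, which are among the 8, the wild-type arrays lay only 0.04 apart. AhR-deficient replicate 1 was the highest in 8 of the 9, where it was highest in 31.7%. The median gap between replicates was 0.34 in AhR-deficient cells (replicate 1 higher) and -0.42 in the wild-type samples (replicate 1 lower). In 4 of the 9 genes, B2m, Tap1, Tapbp and Canx, the genotype difference exceeded the larger replicate gap, as it did in size in 23.4% of all genes.

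The size of the genotype difference depended on which arrays were used. With wild-type replicate 1 left out the median difference of the 9 genes was 0.27, and with replicate 2 of that genotype left out it was 0.69. Without AhR-deficient replicates 1 and 2 it was 0.38 and 0.67. H2-K1 had 0.13 and H2-D1 0.15 without wild-type replicate 1, against 0.68 and 0.82 without wild-type replicate 2. Tap2 went from 0.16 to 0.99 in the same way. For Calr the order was turned, at 0.76 without wild-type replicate 1 and 0.12 when the other wild-type array was left out. Tap1 depended on the other genotype, with 0.38 and 1.06 without AhR-deficient replicates 1 and 2. Tapbp had 0.27 and Erap1 0.21 without wild-type replicate 1, and 0.30 and 0.20 without AhR-deficient replicate 1. Canx had 0.32 without wild-type replicate 1. B2m, by its brightest probe set, stayed between 0.62 and 0.71 whichever array was left out. Its second set, with wild-type arrays 0.64 apart, is not given here. All 9 differences stayed above 0 in each of these fits. For the 6 genes without overlap no other sign was possible.

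**Figure D4:**
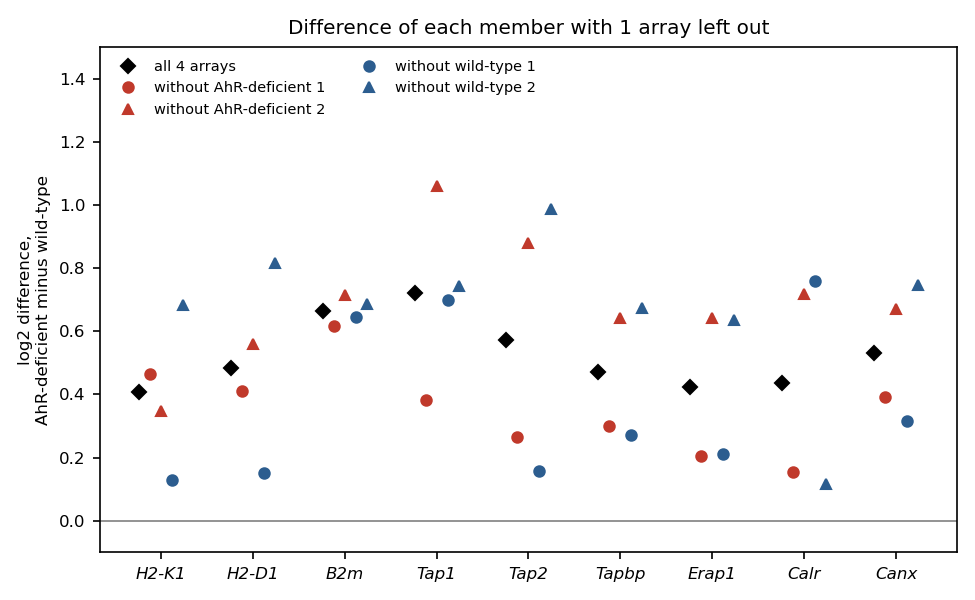
Log2 difference, AhR-deficient minus wild-type, of each gene with all 4 arrays (black diamonds) and with 1 array left out (red, an AhR-deficient array; blue, a wild-type array; circles, replicate 1; triangles, replicate 2). B2m, by its brightest probe set, stays within 0.62 to 0.71, and H2-K1, H2-D1 and Tap2 come down to 0.13, 0.15 and 0.16 without wild-type replicate 1.

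Other measures also moved with these arrays. The log2 excess of the 3′ over the 5′ control probe set for Actb, which grows as RNA or its copies are shortened, was 2.34 and 2.61 in the AhR-deficient samples and 3.16 and 2.65 in the wild-type samples. It was thus highest in wild-type replicate 1, the array lowest for most listed genes. For Gapdh it was 2.24 and 2.19 against 2.60 and 1.97. Keratinocyte markers (11 of 12 measured) had a summed linear signal of 899 and 453 in the AhR-deficient and 398 and 444 in the wild-type samples, with 5 markers higher and 0 lower without overlap, and Krt15, Col17a1 and Sfn dim. Lor, the brightest of them, weighs most in this sum. It read 8.53 and 6.72 against 6.72 and 6.91, with overlap (SE 0.62). T cell markers (7 of 10 measured, none dim) summed to 318.5 and 355 against 440.0 and 404, with 4 lower and 0 higher. The 4 were Cd3g at -1.26 (SE 0.15), Cd2 at -0.70 (SE 0.12), Cd3d at -0.56 (SE 0.15) and Cd7 at -0.36 (SE 0.12). None of them passed adjustment in limma, and the other 3 overlapped. Melanocyte markers (5 of 6) summed to between 314 and 334, and fibroblast and endothelial markers (all 6) to between 305 and 340, on every array. Langerhans and dendritic cell markers (all 12, none dim) summed to 24919.5 and 23203.6 against 16869.3 and 20841.7. The sum was lowest in wild-type replicate 1, but single markers did not share this. That array was lowest for 4 of the 12, and wild-type replicate 2 for another 4, among them H2-Aa, H2-Ab1 and H2-Eb1. Of the 12 markers, 6 were higher and 2 lower without overlap. The MHC class II genes H2-Eb1, H2-Aa and H2-Ab1 differed by 1.37 (SE 0.20), 1.31 (SE 0.14) and 1.24 (SE 0.27), their invariant chain Cd74 by 0.93 (SE 0.12) and Cd83 by 0.61 (SE 0.08), and none passed adjustment in limma. Itgax was the other one higher, at 0.14 (SE 0.10). The 2 lower were the growth factor receptor Csf1r, at -1.05 (SE 0.26), and Cd24a, at -0.43 (SE 0.09), which did not pass either. Cd207, which encodes langerin, overlapped, at 11.21 and 11.71 against 11.00 and 12.06. All these counts stand against the 18.8% of genes higher and 16.6% lower without overlap over the whole array. The part of RNA quality or of other cells in the class I differences was not tested.

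The core of the AhR response element (GCGTG, searched on both strands) was present before the start of 4 of the 9 listed genes with a promoter, and in 28.2% of all promoters. The 5 places are shown, with the core in capitals, because AhR is the factor that was missing. In each, 10 bases on either side are given, on the gene's strand and build as above.
H2-D1, chr17:35263067-35263091: ttataaagtcCACGCaacccgcggg
Tap1, chr17:34187392-34187416: cgcgcaagggGCGTGccgttctacc
Tap1, chr17:34187514-34187538: tgggaaaattCACGCaagcaagtta
Calr, chr8:84847080-84847104: cccccacaacGCGTGgtcgaccctc
Canx, chr11:50325796-50325820: gaccaatcacCACGCtccacgaaga
The promoters of H2-K1, H2-T23, B2m, Tapbp and Erap1 held no such letters in this window. Genes with the core differed by 0.44 to 0.72 and measured genes without it by 0.41 to 0.67. The part of the core in these differences was not tested.

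Of the 10 listed genes, 6 lie on chromosome 17, where the mouse MHC is found. The 5 of them that were measured had a median difference of 0.48, and so did the 4 on other chromosomes, B2m, Erap1, Calr and Canx. In the order of protein-coding genes, Psmb9, Tap1, Psmb8 and Tap2 follow each other. The immunoproteasome subunit Psmb9 read 9.36 and 9.30 against 8.45 and 8.79, a difference of 0.71 (SE 0.14, limma adjusted p = 0.571), next to 0.72 for Tap1. Psmb8, between the transporter genes, read 11.32 and 11.18 against 10.64 and 11.23, a difference of 0.32 (SE 0.22) with overlap.

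Other genes of the class I route were read from lists of 57 measured genes. In limma 0 passed adjustment, where 0% of all genes passed as higher and 0.0323% as lower, and at an unadjusted p under 0.05 there were 4 higher and 1 lower, where 3.5% and 3.04% of all genes were. Without overlap 13 were higher and 7 lower, near the shares of all genes (18.8% and 16.6%), and the median difference was 0.09. The same shares are the background for the counts of each group that follows, none of which was tested as a group.

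The immunoproteasome and its PA28 activator, which shape peptides for class I, had 4 of 5 genes measured, 3 higher and 0 lower without overlap (all genes, 18.8% and 16.6%), and a median of 0.33. Psmb10 read 8.43 and 8.55 against 8.04 and 8.23 (difference 0.35, SE 0.11, limma adjusted p = 0.761). Psme1, a PA28 subunit, differed by 0.32 (SE 0.21). The 3 constitutive catalytic subunits that the immunoproteasome replaces had a median of -0.17, with 0 higher and 1 lower without overlap. That gene, Psmb5, read 9.07 and 9.42 against 9.54 and 9.63 (difference -0.34, SE 0.14, limma adjusted p = 0.857). Psmb6 and Psmb7 differed by -0.17 (SE 0.14) and 0.27 (SE 0.42).

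The remaining class I heavy chain genes and their relatives (15 of 26 measured) had a median of 0.03, with 5 higher and 1 lower without overlap (all genes, 18.8% and 16.6%). H2-M3, which presents formylated peptides, read 7.004 and 6.98 against 6.15 and 6.49 (difference 0.67, SE 0.14, limma adjusted p = 0.599). Cd1d1, which presents lipids to NKT cells, read 8.82 and 7.94 against 7.62 and 7.72 (0.71, SE 0.31, limma adjusted p = 0.857). H2-T24 differed by 0.18 (SE 0.08) and was dim.

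Of 11 further folding factors of the endoplasmic reticulum, all measured, 0 were higher and 3 lower without overlap (all genes, 18.8% and 16.6%), with a median of 0.13. Pdia3, the disulfide isomerase ERp57 of the loading complex, read 8.62 and 7.78 against 6.91 and 8.16. Its difference of 0.67 had an SE of 0.52, and the genotypes overlapped. Prkcsh, a glucosidase II subunit, differed by -0.20 (SE 0.08, limma adjusted p = 0.834) and Bcap31, an export receptor, by 0.32 (SE 0.18).

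Among trimming peptidases of the cytosol and endosomes (5 of 6 measured, median -0.03) 1 was higher and 0 lower without overlap, Tpp2, at 7.50 and 7.42 against 7.197 and 7.26 (difference 0.24, SE 0.08, limma adjusted p = 0.811). Npepps and Blmh, the next by p, differed by -0.22 (SE 0.29) and 0.14 (SE 0.19). Genes of cross-presentation (6 of 7 measured, median 0.09) had 1 higher and 0 lower without overlap, which was Cybb, at 0.10 (SE 0.08). Stx4a differed by 0.37 (SE 0.25) and Sec22b, a SNARE of vesicle traffic from the endoplasmic reticulum, by 0.27 (SE 0.19).

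Transcription factors that act on class I genes (13 of 16 measured, median 0.11) had 3 higher and 2 lower without overlap, near the 18.8% and 16.6% of all genes. Irf8, a factor of dendritic cell development, read 8.91 and 8.52 against 9.15 and 9.29 (difference -0.51, SE 0.16, limma adjusted p = 0.770). Nfya, a subunit of the Y box factor, and Stat2, of the interferon pathway, each differed by 0.26 (SE 0.11). Irf1, an interferon-induced activator of class I genes, read 8.72 and 8.26 against 8.37 and 8.32, with overlap. Nlrc5 was not analysed here.

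**Figure D5:**
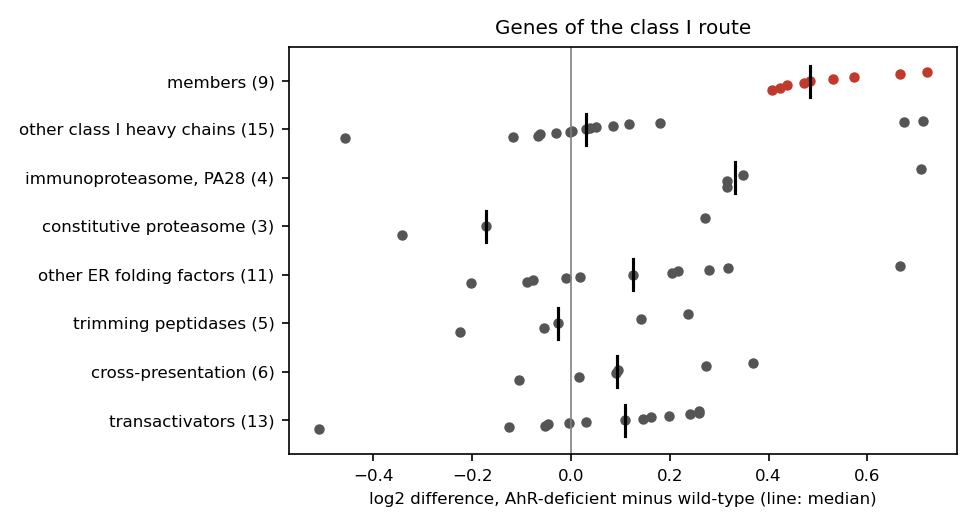
Log2 difference, AhR-deficient minus wild-type, of each measured gene (points, 1 probe set a gene) in the listed class I genes (red) and in 7 further groups of the class I route (grey), with the median of each group as a black line and the number of genes in brackets. The red points span 0.41 to 0.72, while the medians of the other groups run from -0.17 to 0.33.

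The genes whose array pattern was nearest to the mean of the listed genes were Txnrd1, Mob1b, Nedd4l, Naa15 and Trim25. Nearness was the Euclidean distance of centred log2 values over 4 arrays, which was 0.02 to 0.08 for these 5. Listed genes themselves lay between 0.09 (Tapbp) and 0.69 (Calr) from their mean. Txnrd1, the cytosolic thioredoxin reductase, read 9.08 and 8.74 against 8.22 and 8.51 (difference 0.54, SE 0.17, limma adjusted p = 0.773).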

How the data were processed

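RNA of sorted Langerhans cells was amplified, labelled with biotin and hybridised to MOE430A arrays, per the labels' protocols. The authors deposited log2 expression values, made with affy and RMA per the submitters' processing notes (no version in the sources used here). RMA corrects background, makes array distributions alike and summarises probes, so shifts common to all genes are removed. Array medians were 5.60 to 5.63, and values were used without further scaling.

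Of 22690 probe sets, 64 controls were left out. The annotation gave 1 symbol to 20380, several to 691 and none to 1555. Of the first, 20351 matched RefSeq genes of GRCm38.p6 by Entrez identifier, and 0 symbols changed. A build for the arrays was not given in these sources, so the RefSeq tables served for names, gene order and promoters. Heavy chain proteins were not compared here.

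The genotype fit used limma's lmFit and eBayes (version 3.58.1, R 4.3.3) with a two-sided moderated test, 2 residual and 2.27 prior degrees of freedom, Benjamini-Hochberg adjustment over all 22626 probe sets and a threshold of 0.05. Precision is limited by the number of arrays: the median SE was 0.10. P-values set each difference against the spread between these arrays, moderated by the spread of other probe sets. The fit was tested on simulated data with independent noise and differences larger than those of the listed genes. That test does not show how often differences of their size would be called.

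The members and lists were chosen with earlier results of these data known. All members were named, with up to 3 genes per further group by smallest unadjusted p and the 5 nearest in pattern. Irf1 and Psmb8 were added after their values were seen. The alternatives tried were a trend or robust option in eBayes, a replicate block, omission of dim or of _x_at and _s_at probe sets, quantile or median scaling, 16 added on the linear scale, array weights, probe set means, and each array left out.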

Additional observations from a re-analysis of the deposited data

How the results depend on the processing

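The values of the 9 class I genes, their counts and the calls over all probe sets were recomputed under 14 alternatives, plus 1 chosen after seeing the data; counts of called probe sets have no value under probe set means. The further groups of the route, the cell type markers and the nearest genes were not recomputed. The 9 class I genes had a difference above 0 in every alternative in which they were measured. With all 4 arrays, none passed adjustment in any of them. H2-K1 was lost when _x_at and _s_at probe sets were left out, as it has no others. Replicate blocks, the eBayes options, omission of dim sets and array weights left these differences unchanged, as the group means stay the same. For the 6 genes without overlap, leaving out 1 array could not turn the sign either. The median class I difference was 0.42 with probe set means, 0.50 without _x_at and _s_at sets and 0.47 with median centring. It was 0.27 to 0.69 with 1 array left out. The genes higher without overlap numbered 5 with probe set means, 4 of 8 without _x_at and _s_at sets, and 6 to 9 with 1 array left out, when overlap is also rarer over all genes (32.4% to 38.9% higher). Over all probe sets, the 4 called as lower became 0 with a replicate block, with 16 added on the linear scale, and with any 1 array left out (0 to 0). With a trend in eBayes 7 were lower and 1 higher. Whether replicate numbers pair the arrays cannot be told from these values. The gaps between replicates 1 and 2 in both genotypes correlated at -0.31 across probe sets. The crossed pairing, chosen after this, gave 0 lower, 0 higher and 0 class I probe sets called. Array weights were nearly equal, since 2 arrays a group cannot be weighted apart. The number of arrays limits these values, with SEs of 0.08 to 0.36 for the 9 genes.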
